A study of Schizosaccharomyces pombe with 5 samples.

Results

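The folding machinery of the endoplasmic reticulum (ER) was followed through 7 of the 5134 genes measured in every comparison. The genes were taken by name. They encode the unfolded-protein sensor Ire1 (ire1, SPAC167.01), the luminal Hsp70 Bip1 (bip1, SPAC22A12.15c), the lectin chaperone calnexin (cnx1, SPAC3C7.11c), the disulfide isomerase Pdi1 (pdi1, SPAC1F5.02), the oxidases Ero11 (ero11, SPBC4F6.16c) and Ero12 (ero12, SPCC1450.14c), and the glucosyltransferase Gpt1 (gpt1, SPBPJ4664.06). All 7 were found in the tables.

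Proteins enter the ER lumen unfolded. Bip1 binds exposed hydrophobic stretches, calnexin holds glycoproteins that carry a terminal glucose, Gpt1 puts that glucose back on chains that are still misfolded, and Pdi1 makes and reshuffles disulfide bonds with oxidizing power that it receives from Ero1-type oxidases. In budding yeast and in mammals Ire1 splices the mRNA of a transcription factor (Hac1 or XBP1) that raises such genes. Fission yeast has no Hac1 or XBP1. Its Ire1 instead cleaves mRNAs at the ER so that they are degraded, and the bip1 mRNA is the known exception, since cleavage by Ire1 stabilizes it.

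RNA was sequenced from wild-type Schizosaccharomyces pombe (strain 972 h-) grown at 30 ºC in 5 conditions, of which 1 was left untreated (control). The others received diamide at 3 mM, sampled after 30 min (DIA30) and after 60 min (DIA60), or hydroxyurea at 75 mM, sampled after 60 min (HU60) and after 150 min (HU150). Diamide (DIA) oxidizes thiols, and hydroxyurea (HU) inhibits ribonucleotide reductase. The study reports that HU also causes oxidative stress, and that its effect on the ER does not depend on that inhibition. DIA30 and HU60 were taken before N-Caps formed, that is, before the perinuclear ER expanded and nuclear pores clustered, while DIA60 and HU150 were taken when cells began to show N-Caps. There were 3 independent repetitions per condition and 15 libraries of 24116729 to 24274040 read pairs. The question asked of the 7 genes was whether their mRNAs rose before or at the onset of ER expansion.

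The deposited tables compare each treatment with the 1 shared set of control libraries. They hold a log2 fold change with its standard error (SE) per gene, and a single mean of the normalized counts (read counts divided by a library size factor) of the 15 libraries. Values per library were not at hand, so the level in each condition was rebuilt from that mean and the 4 fold changes, and the spread between repetitions was rebuilt from the standard errors. This rebuilt spread is 1 value per gene for all 5 conditions and not a spread observed between libraries. As a coefficient of variation it was 3.60% for bip1, 4.02% for pdi1, 4.07% for gpt1, 4.28% for cnx1, 4.59% for ire1, 4.76% for ero11 and 4.79% for ero12. Normalized counts are not corrected for gene length, so levels were compared between conditions and not between genes. RNA content per cell was not measured, and a fold change is relative to the other mRNAs of the same library.

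None of the 7 genes changed by 2-fold in any treatment. All 28 of the 95% intervals (log2 fold change ± 1.96 SE, 7 genes in 4 comparisons) lay between -1 and 1. Within those limits the genes behaved in different ways. The bip1 mRNA was higher in both diamide conditions and lower in HU150, cnx1 and ero11 were higher in all 4 treatments, ire1 was higher only in DIA60 by the test against the control, ero12 and gpt1 moved by small amounts, and pdi1 passed no test against the control.

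When both a 2-fold change and an adjusted p under 0.05 were required, 0 of the 7 genes were called in DIA30 (4.73% of all 5134 genes were), 0 in DIA60 (8.14% of all genes), and for HU the count was 0 at 60 min (2.28%) and 0 at 150 min (5.78%). Few genes of any kind were called, so a count of 0 in 7 does not by itself set these genes apart from the others. With the adjusted p alone (Benjamini-Hochberg over 5134 genes), 3 of the 7 were raised in DIA30 against 29.1% of all genes, and 0 were lowered against 28.0%. In DIA60, 5 were raised against 36.4% of all genes and 1 was lowered against 35.3%. In HU60, 2 were raised against 24.6% and 0 were lowered against 22.2%. In HU150, 3 were raised against 33.1% and 1 was lowered against 31.7%. Among 7 genes, 1 gene is 14.3%. The shares raised in DIA30 (42.9%), HU60 (28.6%) and HU150 (42.9%) therefore lay near those of all genes. In DIA60 the share was 71.4% against 36.4%, and the difference between these shares was not tested. The median log2 fold change of the 7 was 0.06 in DIA30 and 0.24 in DIA60, and -0.03 in HU60 and 0.08 in HU150. Over all genes these medians were 0.007, 0.008, 0.003 and 0.008.

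**Figure D1:**
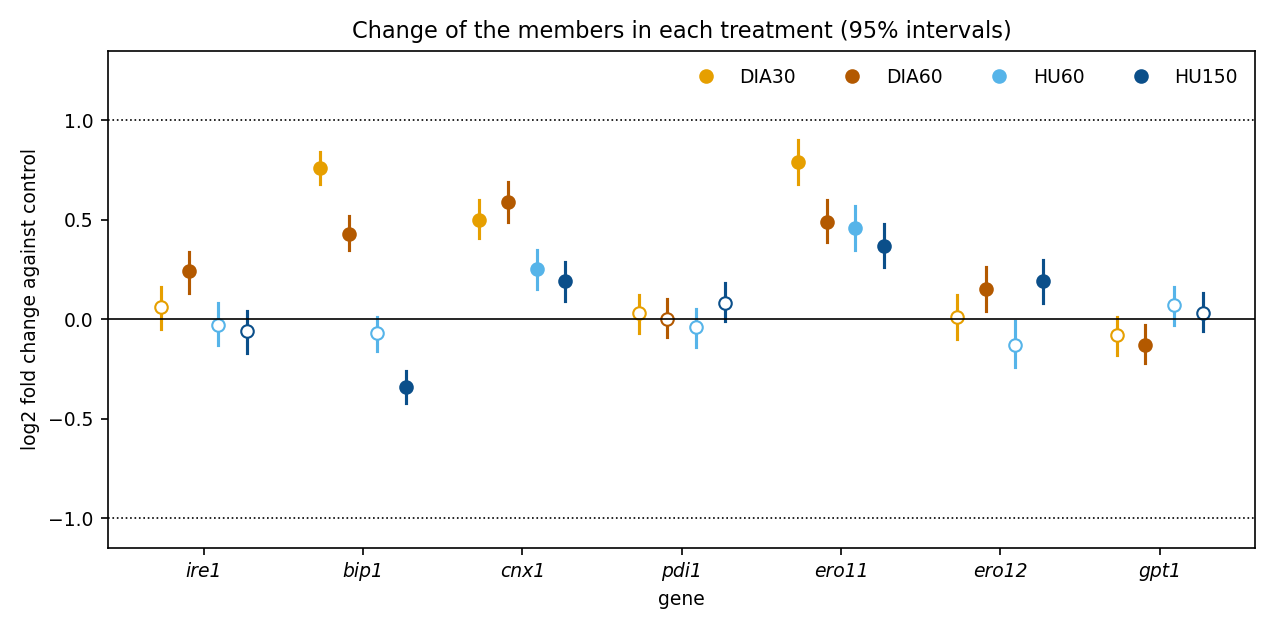
Log2 fold change against the control (y axis) of the 7 genes (x axis) in DIA30, DIA60, HU60 and HU150. Bars are 95% intervals, filled points have an adjusted p below 0.05 and open points do not, and dotted lines mark 2-fold. All 28 intervals stay inside the dotted lines, and the highest points are those of bip1 (0.76) and ero11 (0.79) in DIA30.

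The mRNA of the sensor, ire1, stood at a rebuilt level of 1168 normalized counts in the control, 1213 in DIA30 and 1377 in DIA60, and 1147 in HU60 and 1117 in HU150. The level was highest in DIA60 and lay within a few percent of the control elsewhere. In DIA60 the log2 fold change was 0.24 (SE 0.053, adjusted p = 1.71e-05), an increase of 17.9%. The log2 fold changes in DIA30 (0.06, 95% interval -0.05 to 0.16), HU60 (-0.03, -0.13 to 0.08) and HU150 (-0.06, -0.17 to 0.04) did not pass the test. DIA60 was higher than DIA30 by 0.18 on the log2 scale (SE 0.076), with an adjusted p of 0.0445 that was lost with a t distribution of 10 degrees of freedom. These are amounts of the sensor's mRNA, and Ire1 activity was not measured by them. The ire1 gene overlaps pga1 on the opposite strand. The strand setting of the counting is not given in the sources used here, and pga1 (229 normalized counts) had log2 fold changes of -0.29 in DIA30 and -0.35 in DIA60, and 0.04 in HU60 and 0.20 in HU150.

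The bip1 mRNA was among the most abundant, with a mean normalized count above that of 98.9% of genes. Its rebuilt level was 40970 normalized counts in the control, 69291 in DIA30 and 55373 in DIA60, and 38955 in HU60 and 32383 in HU150. It was thus highest at the early diamide time, lower but still above the control at 60 min, close to the control in HU60, and lowest in HU150, with a ratio of 2.14 between the extremes. The log2 fold change against the control was 0.76 in DIA30 (SE 0.042, adjusted p = 6.64e-70), higher than that of 94.8% of all genes. In DIA60 it was 0.43 (SE 0.042, adjusted p = 8.09e-24). In HU60 the value of -0.07 did not pass the test (95% interval -0.16 to 0.01, adjusted p = 0.151), so the interval leaves room for an increase of at most 0.01 on the log2 scale. In HU150 bip1 fell by 0.34 on the log2 scale (SE 0.042, adjusted p = 7.72e-15), to 0.790 of the control. Bip1 was the only one of the 7 that was raised in 1 drug and lowered in the other by the adjusted p. In the order of its levels, every neighbouring pair of conditions differed except the control and HU60.

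**Figure D2:**
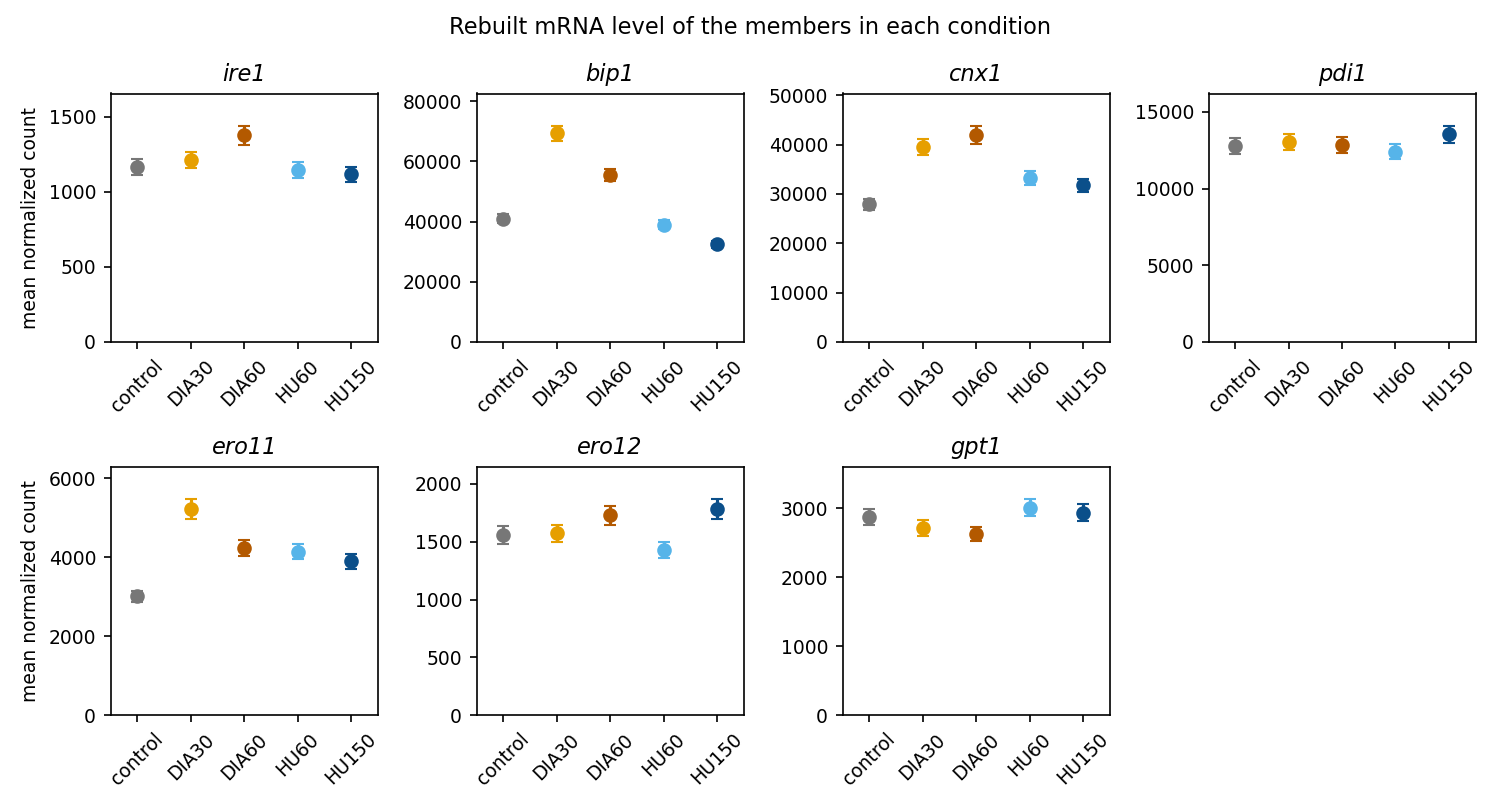
Rebuilt mean normalized count (y axis, from 0, 1 scale per gene) of the 7 genes in the 5 conditions (x axis). Bars are the SD between 3 repetitions implied by the standard errors, with 1 coefficient of variation per gene used for all 5 conditions. The bip1 points run from 69291 in DIA30 to 32383 in HU150, while those of pdi1 stay between 12396 and 13539.

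In the calnexin cycle, cnx1 rose in every treatment and gpt1 hardly moved. The rebuilt level of cnx1 was 27860 normalized counts in the control, 39519 in DIA30 and 41996 in DIA60, and 33171 in HU60 and 31739 in HU150. All 4 treated levels lay above the control, those of diamide above those of HU. The log2 fold change was 0.50 in DIA30 (SE 0.050, adjusted p = 1.82e-22) and 0.59 in DIA60 (SE 0.050, adjusted p = 5.69e-31). In HU it was 0.25 at 60 min (SE 0.050, adjusted p = 3.31e-06) and 0.19 at 150 min (SE 0.050, adjusted p = 4.22e-04). Unlike bip1, cnx1 did not differ between the 2 times of either drug by the test. It overlaps pex13 on the opposite strand, a gene of 1052 normalized counts whose log2 fold changes were -0.10, -0.11, 0.03 and 0.01 in DIA30, DIA60, HU60 and HU150.

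The level of gpt1 was 2872 normalized counts in the control, 2715 in DIA30 and 2626 in DIA60, and 3006 in HU60 and 2938 in HU150. It was slightly below the control in diamide and slightly above it in HU. Only the DIA60 value passed the test, where gpt1 fell by 0.13 on the log2 scale (SE 0.048, adjusted p = 0.0114). That call was lost at an adjusted p of 0.01. The 95% intervals were -0.18 to 0.01 in DIA30, -0.03 to 0.16 in HU60 and -0.06 to 0.13 in HU150.

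Of the genes for disulfide formation, ero11 rose in all 4 treatments, while pdi1, whose protein passes on the oxidizing power of Ero1, passed no test against the control. The rebuilt level of ero11 was 3015 normalized counts in the control, 5220 in DIA30 and 4246 in DIA60, and 4149 in HU60 and 3904 in HU150. The control was the lowest of the 5 conditions and DIA30 the highest. The log2 fold change was 0.79 in DIA30 (SE 0.055, adjusted p = 4.24e-45), the highest of all 28 values, and 0.49 in DIA60 (SE 0.055, adjusted p = 2.67e-18). In HU60 it was 0.46 (SE 0.056, adjusted p = 1.85e-15), higher than that of 92.0% of genes, and in HU150 it was 0.37 (SE 0.055, adjusted p = 7.39e-11). DIA60, HU60 and HU150 were neighbours in level whose differences did not pass the test, although HU150 minus DIA60 (-0.12) passed with rebuilt variances that leave out the control.

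The second oxidase gene, ero12, stood at 1557 normalized counts in the control, 1572 in DIA30 and 1727 in DIA60, and 1428 in HU60 and 1780 in HU150. It was highest at the later time of each drug. It rose by 0.15 on the log2 scale in DIA60 (SE 0.056, adjusted p = 0.0116, lost at an adjusted p of 0.01) and by 0.19 in HU150 (SE 0.056, adjusted p = 0.00106). In DIA30 (0.01) and HU60 (-0.13, adjusted p = 0.0584) it did not pass the test. In DIA30 the 95% interval of ero11 (0.68 to 0.90) lay apart from that of ero12 (-0.10 to 0.12), as it did in DIA60 (0.39 to 0.60 and 0.04 to 0.26) and HU60 (0.35 to 0.57 and -0.24 to -0.01). In HU150 the intervals overlapped (0.26 to 0.48 and 0.08 to 0.30).

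The level of pdi1 was 12777 normalized counts in the control, 13007 in DIA30 and 12816 in DIA60, and 12396 in HU60 and 13539 in HU150. The 5 levels lay within a ratio of 1.09 of each other. The 95% interval of the log2 fold change was -0.07 to 0.12 in DIA30 and -0.09 to 0.10 in DIA60, and -0.14 to 0.05 in HU60 and -0.01 to 0.18 in HU150. Changes of the size seen for bip1, cnx1 and ero11 in DIA30 thus lay outside the interval of pdi1 in every treatment.

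The onset of N-Caps was compared with the earlier time of the same drug by the difference of the 2 log2 fold changes, with the SE from both summed in squares. The control libraries enter both terms of this SE, which makes the test conservative, and the DIA60 with DIA30 and HU150 with HU60 comparisons have no treated library in common. In DIA60, 1 of the 7 genes was higher than in DIA30 (17.1% of all genes were) and 2 were lower (21.0% of all genes). In HU150, 1 was higher than in HU60 (11.1% of all genes) and 1 was lower (14.6%). The gene that fell with both drugs was bip1. Its DIA60 level was 0.799 of that in DIA30 (log2 difference -0.32, SE 0.060, adjusted p = 9.56e-07). In HU150 it was at 0.831 of HU60 (log2 difference -0.27, SE 0.060, adjusted p = 9.69e-05). Thus bip1 mRNA was lower when N-Caps began to appear than before, in both drugs. Onset of N-Caps and longer exposure cannot be told apart in these comparisons. Of all genes, 13.2% had a lower difference than bip1 in diamide and 12.6% in HU. Outside the 7, the cytosolic chaperone gene hsp104 (-1.01 and -0.94) and the ER gene erj5 (-0.62 and -0.59) also fell in both drugs, while the ER gene ubc7 rose (0.23 and 0.37).

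The ero11 mRNA also fell from DIA30 to DIA60 (log2 difference -0.30, SE 0.078, adjusted p = 8.28e-04), while its difference between HU150 and HU60 was -0.09 with a 95% interval of -0.24 to 0.07. The ero12 mRNA rose from HU60 to HU150 (0.32, SE 0.080, adjusted p = 5.40e-04), and its DIA60 minus DIA30 difference of 0.14 had an interval of -0.02 to 0.29. For cnx1 the differences were 0.09 in diamide (-0.05 to 0.23) and -0.06 in HU (-0.20 to 0.08). For gpt1 they were -0.05 in diamide (-0.18 to 0.09) and -0.03 in HU (-0.17 to 0.10). For pdi1 they were -0.02 in diamide (-0.15 to 0.11) and 0.13 in HU (SE 0.067, adjusted p = 0.160), and the latter passed with rebuilt variances that leave out the control.

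**Figure D3:**
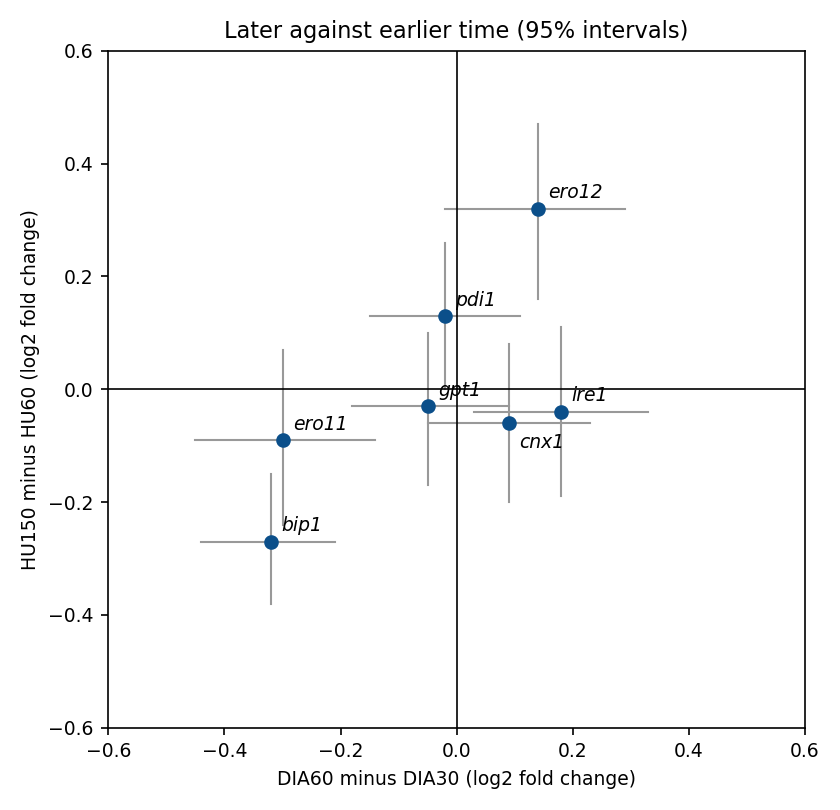
Difference in log2 fold change between DIA60 and DIA30 (x axis) and between HU150 and HU60 (y axis) for the 7 genes, with 95% intervals. Bip1 lies at -0.32 and -0.27 with both intervals below 0, and ero12 at 0.14 and 0.32.

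The drugs were then compared with each other at 3 pairs of conditions. HU60 and DIA60 have the same duration, HU150 and DIA60 are both at the onset of N-Caps, and HU60 and DIA30 are both before it. Doses differ between the drugs, so a difference belongs to these treatments and not to the drugs at equal strength. In HU60, 4 of the 7 genes were lower than in DIA60 (29.3% of all genes were) and 1 was higher (29.4%). In HU150, 3 were lower than in DIA60 (34.3% of all genes) and 1 was higher (32.4%). In HU60, 3 were lower than in DIA30 (27.8% of all genes) and 0 were higher (24.5%).

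Bip1 and cnx1 were lower in HU in all 3 pairs. For bip1 the HU60 level was 0.704 of DIA60 (log2 difference -0.51, SE 0.060, adjusted p = 2.86e-16) and 0.562 of DIA30 (-0.83, SE 0.060, adjusted p = 7.40e-42), and HU150 minus DIA60 was -0.77 (SE 0.060, adjusted p = 1.04e-36). The difference before N-Caps, of -0.83, was lower than that of all but 3.47% of genes. For cnx1 the differences were -0.34 (HU60 minus DIA60, adjusted p = 5.96e-06), -0.40 (HU150 minus DIA60, adjusted p = 4.85e-08) and -0.25 (HU60 minus DIA30, adjusted p = 0.00117).

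For ero11 the differences were -0.03 for HU60 minus DIA60 (95% interval -0.19 to 0.12) and -0.12 for HU150 minus DIA60 (-0.27 to 0.03), and neither passed the test. It was lower in HU60 than in DIA30 (-0.33, SE 0.078, adjusted p = 9.27e-05). The sensor ire1 was lower in HU60 and in HU150 than in DIA60 (-0.26 and -0.30, adjusted p = 0.00127 and 1.49e-04). The gpt1 mRNA was higher in HU60 (0.19, adjusted p = 0.00840) and in HU150 (0.16, adjusted p = 0.0268) than in DIA60. For ero12 the HU60 level was lower than that of DIA60 (-0.28, adjusted p = 0.00136), and HU150 minus DIA60 was 0.04 (-0.11 to 0.20). For pdi1 the 3 intervals were -0.18 to 0.08, -0.05 to 0.21 and -0.20 to 0.06. In all, 17 of the 35 differences between treatments (7 genes in 5 comparisons) passed the test. Over all genes, 11.1% to 32.4% were higher and 14.6% to 34.3% were lower in these 5 comparisons. The total therefore does not set the 7 genes apart from the others.

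The genes that work beside these were described from 5 lists of ER genes, which together hold 43 measured genes, 6 of them among the 7. Of the 37 others, 0 were called at 2-fold in any treatment. By the adjusted p, DIA30 raised 10 of the 37 and lowered 10, DIA60 raised 12 and lowered 10, HU60 raised 8 and lowered 10, and HU150 raised 8 and lowered 11. The shares raised were 27.0%, 32.4%, 21.6% and 21.6%, beside 29.1%, 36.4%, 24.6% and 33.1% of all genes, and the shares lowered were 27.0%, 27.0%, 27.0% and 29.7%, beside 28.0%, 35.3%, 22.2% and 31.7%. Most of these lie near the shares of all genes, and the median log2 fold change was 0.06, 0.05, -0.03 and -0.04.

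Of the 4 co-factor genes of Bip1 that were analysed, none rose in any treatment by the adjusted p. Of all genes, 24.6% to 36.4% were raised, so with only 4 genes this count does not set them apart. Another gene of this list, lhs1, was not found under that name. The nucleotide exchange factor sil1 passed no test, and the J-domain genes scj1, erj5 and sec63 fell in at least 1. The J protein gene erj5 fell by 0.67 on the log2 scale in DIA60 (adjusted p = 4.98e-29) and by 0.78 in HU150 (adjusted p = 1.27e-38), while it was at -0.05 in DIA30 and at -0.19 in HU60 (adjusted p = 0.00437). Erj5 was thus lowest at the later time of each drug, with a DIA60 minus DIA30 difference of -0.62 (adjusted p = 3.08e-12) and a HU150 minus HU60 difference of -0.59 (adjusted p = 3.33e-11). The translocon J protein gene sec63 stood at -0.07 in DIA30 and -0.16 in DIA60, and -0.19 in HU60 and -0.29 in HU150, and all but the first passed the test. Sec63 also stands in the list for translocation.

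The counts of the lists that follow are to be read beside the shares of all genes, which were 24.6% to 36.4% raised and 22.2% to 35.3% lowered in the 4 treatments. Among the 8 genes of oxidative folding, 3 rose and 1 fell in DIA30, 5 rose in DIA60, 2 rose in HU60, and 3 rose and 1 fell in HU150. The thioredoxin-family gene mpd1 was raised in every treatment as ero11 was, with log2 fold changes of 0.61 in DIA30 and 0.37 in DIA60, and 0.42 in HU60 and 0.31 in HU150 (adjusted p between 1.03e-16 and 3.07e-05). A further isomerase gene, pdi5, rose in diamide (0.19 in DIA30 and 0.42 in DIA60), with 0.07 and 0.02 in HU. The isomerase gene pdi4 fell by 0.38 in DIA30 (adjusted p = 2.20e-05).

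In the calnexin cycle list, besides cnx1 and gpt1, the mannosidase gene mns1 rose in DIA30 (0.23) and DIA60 (0.36), and mnl1, whose protein trims misfolded glycoproteins for degradation, fell in all 4 treatments, most in HU150 (by 0.54, adjusted p = 1.25e-17). The glucosidase gene gls2 fell in DIA30, HU60 and HU150, most in HU60 (by 0.15, adjusted p = 0.00156).

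ER-associated degradation pulls misfolded proteins back to the cytosol, where they are ubiquitinated and degraded. Of its 10 genes, 3 rose and 5 fell in DIA30, 6 rose and 2 fell in DIA60, and 5 rose and 1 fell in each of HU60 and HU150. The ubiquitin-conjugating enzyme genes ubc6 (0.58, 0.58, 0.47 and 0.54 in DIA30, DIA60, HU60 and HU150) and ubc7 (0.38, 0.60, 0.26 and 0.63) and the gene of the extracting ATPase, cdc48 (0.28, 0.23, 0.33 and 0.40), rose in every treatment. Npl4, a cofactor of Cdc48, fell by 0.12 in DIA30 and rose by 0.49 in HU150 (adjusted p = 3.28e-26). The membrane protein gene der1 fell in diamide (by 0.48 in DIA30 and 0.74 in DIA60) and was at 0.05 and -0.05 in HU.

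Of 16 genes for translocation into the ER, 4 rose and 2 fell in DIA30, 2 rose and 5 fell in DIA60, 2 rose and 6 fell in HU60, and 2 rose and 6 fell in HU150. The signal peptidase gene sec11 fell in all 4 (by 0.30 in DIA30 and 0.63 in DIA60, and 0.26 in HU60 and 0.74 in HU150), and spc3, another subunit of the same enzyme, rose by 0.59 in DIA30 (adjusted p = 1.87e-31). Sec62, a translocon gene, rose in all 4, most in HU150 (0.35).

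**Figure D4:**
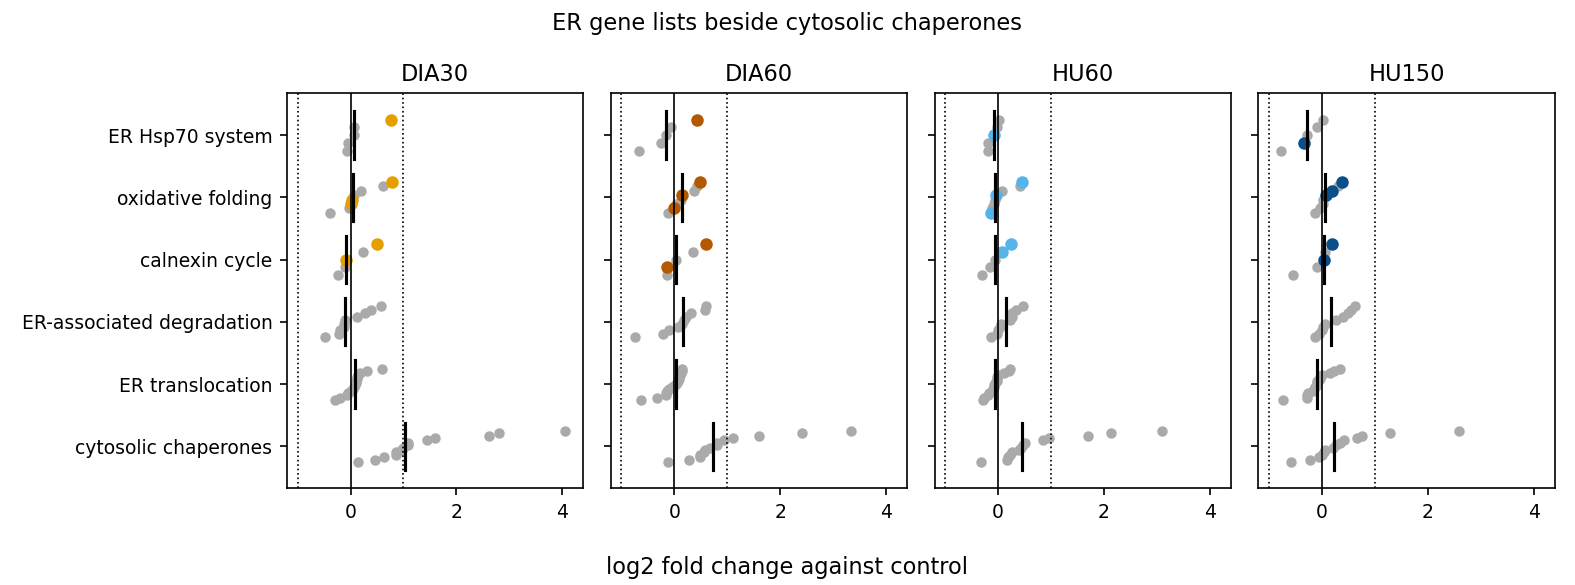
Log2 fold change against the control (x axis) of each gene in 5 lists of ER genes and in a list of cytosolic chaperones (rows), 1 panel per treatment. Coloured points are the 6 of the 7 genes that fall in a list, grey points the other genes, black ticks the medians, and dotted lines 2-fold. No ER point lies beyond 2-fold, while hsp16 reaches 4.06 in DIA30.

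The same libraries held large changes of cytosolic chaperones. Of 14 such genes, DIA30 raised 14 (against 29.1% of all genes), DIA60 raised 13 (36.4%), HU60 raised 13 (24.6%) and HU150 raised 8 (33.1%). The counts lowered were 0, 1, 1 and 2, and those lowered in HU150 were sks2 (-0.58) and mas5 (-0.23). Of the raised genes 7, 4, 3 and 2 rose by 2-fold or more, and the medians over the list were 1.03, 0.73, 0.46 and 0.24. The small heat shock protein gene hsp16 stood at 4.06, 3.33, 3.10 and 2.59, the Hsp70 gene ssa1 at 2.81, 2.41, 2.13 and 1.29, the disaggregase gene hsp104 at 2.61, 1.60, 1.70 and 0.76, and the Hsp70 exchange factor gene fes1 at 1.59, 0.94, 0.84 and 0.42 in DIA30, DIA60, HU60 and HU150. Against these, the ER Hsp70 gene bip1 stood at 0.76, 0.43, -0.07 and -0.34. Among the 4 treatments all 5 of these genes were highest in DIA30 and lowest in HU150. In HU150 hsp16, ssa1, hsp104 and fes1 were still above the control, and bip1 was below it. These 4 cytosolic genes were named for the size of their rise and do not stand for all 14. In the same order of treatments mas5 stood at 1.08, 0.58, 0.17 and -0.23, and sks2 at 0.14, -0.12, -0.33 and -0.58. In HU150 ssa2 (-0.06), pss1 (-0.00), hsp90 (0.03) and sti1 (0.06) did not pass the test, while 8 of the 14 were raised. A fall below the control in HU150 was therefore not particular to bip1.

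Of 3 mRNAs known to be lowered in dithiothreitol, which reduces disulfides and activates Ire1, ist2 and xpa1 were followed, while efn1 was not found under that name and is not analysed here. The study names them as the only genes lowered both in dithiothreitol and in its diamide samples, and it found no such overlap for HU. They are therefore no independent evidence of direction. The study concludes that the responses to both drugs differ from that to dithiothreitol. In diamide ist2 fell by 0.78 at 30 min and fell by 1.14 at 60 min, and xpa1 fell by 0.75 at 30 min and fell by 1.43 at 60 min. In HU60 ist2 was at -0.01 and xpa1 at 0.21 (adjusted p = 0.00471), and in HU150 ist2 was at -0.15 (adjusted p = 0.0108) and xpa1 at 0.10. In the same order bip1 stood at 0.76 and 0.43 in diamide and at -0.07 and -0.34 in HU.

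The genes whose pattern was most like that of a member were found by the Euclidean distance over the 4 log2 fold changes, among the 4867 genes whose mean was 50 normalized counts or more. The distance grows with the size of the changes. Nearest to bip1 were its3, encoding a phosphatidylinositol 4-phosphate kinase (distance 0.197, with 0.82, 0.43, -0.09 and -0.53), sod22 (0.216) and bop1 (0.260). No gene came as close to bip1 as genes did to the other 6 members, whose nearest genes lay at 0.022 to 0.123. These were cap1 for gpt1 (0.022), the tubulin gene atb2 for pdi1 (0.040), pdp3 for ire1 (0.042), the ubiquitin ligase gene san1 for cnx1 (0.069), dsh1 for ero12 (0.107) and SPAC323.04 for ero11 (0.123). The other members lay at 0.687 (cnx1) to 1.086 (gpt1) from bip1, so none of them was as near to it as its3, sod22 or bop1. A large distance does not mean a different order of treatments. Like bip1, ero11 (at 0.893) was highest in DIA30, followed by DIA60, HU60 and HU150, but it stayed above the control throughout.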

How the data were processed

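Messenger RNA of 5 conditions was sequenced as 15 libraries, 3 independent repetitions of each by the study's legend, while the labels name 1 sample per condition. For the deposited tables the authors used STAR 2.7.10a and SAMtools 1.3 with the genome version ASM294v2, HTSeq 2.0.1 for counts per gene, and DESeq2 for the comparisons with untreated cells. The deposited tables were used as they are. Their signal values are the authors' mean normalized counts, their log2 values the authors' fold changes, with standard errors, their score values the authors' Wald statistics, and their p-values the authors' two-sided Wald p, with and without Benjamini-Hochberg adjustment. These columns hold the authors' own comparisons, and they could not be refitted, since counts of single libraries were not used here. The deposited library statistics give the read pairs and the percent GC (43.3% to 44.1%).

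The Wald statistics were recovered from the fold changes and standard errors to within 1.56e-13, and p-values adjusted here equalled the deposited ones to within 1.28e-15. For DIA60 and HU60 5145 genes are listed, 11 of them without a p, and 5134 genes had one in each table and were used. Levels per condition were solved from a gene's mean count and its fold changes, and the spread between repetitions by solving the standard errors for the variance among 3 repetitions. Treatments were compared by the difference of log2 fold changes divided by their combined standard error (squares summed). The p was two-sided, from the normal distribution, and adjusted over 5134 genes. This test was run on simulated counts with the spread between repetitions taken as known. The simulation therefore could not check whether the normal distribution is too lenient with 3 repetitions. Python 3.11.15, numpy 2.4.6, pandas 2.3.3 and scipy 1.17.1 were used. Alternatives were thresholds of 1.5-fold, of no fold and of an adjusted p of 0.01, a t distribution with 10 degrees of freedom, a minimum mean count of 10, centring on the median, and rebuilt variances.

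The members and the gene lists were chosen with earlier results of these data known. The named genes were the 7 members, up to 4 genes per list that passed both thresholds, with the largest change, and the genes nearest in pattern (3 for bip1, 1 for each other member). In the ER lists no gene passed both, so the genes named there, and the other names in the text, were chosen after their values were seen. Of the list names, gtb1 (gamma-tubulin in these files) and png1 (a chromatin protein) belong to other genes and were left out, and lhs1, gls1, dfm1 and efn1 were not analysed here. The RefSeq annotation belongs to another version of the assembly (ASM294v3). It was used for names and for which genes overlap (7 of 7 members and 5101 genes matched by locus tag), and no sequence is shown. Besides pga1 and pex13, non-coding genes without values in the deposited comparisons overlap every member except ero12. They lie on the opposite strand, apart from the small nucleolar RNA gene snoU18, which lies on the same strand as ero11.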

Additional observations from a re-analysis of the deposited data

Results flagged for a closer look

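One result stood out because the test of the difference between the drugs passed and bip1 was raised in one drug and lowered in the other. At the onset of N-Caps the log2 fold change of bip1 was -0.34 in HU150 and 0.43 in DIA60, each with an adjusted p below 0.05, and the difference was -0.77 (SE 0.060, adjusted p = 1.04e-36). The durations were 150 and 60 min and the doses 75 and 3 mM, so drug, dose and time cannot be told apart in this difference. At equal duration, HU60 minus DIA60 was -0.51. For HU150 minus DIA60, 7.13% of all genes had a lower difference than bip1. The opposed directions were not particular to bip1. By the adjusted p, the cytosolic chaperone gene mas5 was also raised in DIA60 (0.58) and lowered in HU150 (-0.23), whereas hsp16, ssa1 and hsp104 were raised in both. The difference of -0.77 was past the threshold under every alternative that was run.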

How the results depend on the processing

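With a 1.5-fold threshold, 2 of the 7 genes were called in DIA30 and 1 in DIA60, against 0 at 2-fold, where that threshold called 11.6% and 20.9% of all genes. With no fold threshold, DIA30 had 3 calls, DIA60 had 6, HU60 had 2 and HU150 had 4. In the same order, that setting raised 29.1%, 36.4%, 24.6% and 33.1% of all genes and lowered 28.0%, 35.3%, 22.2% and 31.7%. These counts therefore do not set the 7 genes apart. For HU60 against DIA30, rebuilt variances without the control libraries gave 5 members that differed in place of 3. The share of all genes under that setting is not given here. The other counts of members stayed within 1.5 times of the reported ones, and no value changed direction. Of 287 values of single members recomputed, 6 lost their call (ero12 and gpt1 in DIA60, the ire1 difference between DIA60 and DIA30, and the gpt1 difference between HU150 and DIA60, the last pair under 2 settings each) and 5 gained one under rebuilt variances (ero12 between DIA60 and DIA30, pdi1 between HU150 and HU60, ero11 between HU150 and DIA60, and ero12 and gpt1 between HU60 and DIA30). Leaving out single libraries was not run, and no paired analysis was possible because no value per library was at hand. Depth limited the less abundant members more: for ire1 the coefficient of variation was 3.53% without counting noise and 4.59% with it, and for bip1 3.57% and 3.60%.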
